A study of Mus musculus with 3 samples.

Results

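The 10 genes described here encode the E proteins, the Id proteins that oppose them and the partners with which E proteins work in early progenitors. They were chosen by gene symbol, as the probe sets with a single platform symbol among Tcf3, Tcf12, Tcf4, Id1, Id2, Id3, Id4, Lyl1, Tal1 and Lmo2. All 10 were found among the 19938 genes with such a probe set, each with 1 probe set. E proteins are basic helix-loop-helix (bHLH) transcription factors that pair through the helix-loop-helix and bind the E-box, a short palindrome-like DNA word, through the basic region. Id proteins keep the helix-loop-helix but lack the basic region, so an E protein bound to an Id protein cannot hold DNA. In the thymus, E proteins drive the genes of T lineage commitment and antigen receptor recombination, and signals from the pre-T cell receptor and the T cell receptor raise Id3 and relieve that programme.

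Gene expression was measured by microarray on total RNA of double-positive (DP) thymocytes, CD4+ CD8+ cells that have passed beta selection and await selection on the T cell receptor. The study has 1 group of 3 samples, each from a cohort of littermate wild-type (WT) C57BL/6 mice aged 5 to 6 weeks, with the number of mice in a cohort not stated. Cells were enriched with beads, first for CD8 and then for CD4. There is no second condition, and the project also mapped the binding of E47, a product of Tcf3, in DP cells. All values are deposited log2 values, 1 per probe set and array, with a median near 6.76. A gene was called above background on an array where it exceeded a limit set by genes that only other organs express. That limit, the 95th percentile of their values, was 7.35 on array 1, 7.44 on array 2 and 7.39 on array 3. The 7 measured DP markers, Cd4, Cd8a, Cd8b1, Rag1, Rag2, Dntt and Cd3e, all lay above background on every array. A probe set's brightness also depends on its probes, so no gene was ranked above another by its value. In RNA of a cell population, fewer cells of a type and less RNA per cell cannot be told apart.

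All 3 E protein genes and 2 of the 4 Id genes were expressed above background in every cohort, whereas no partner of early progenitors was. The 5 genes above background on all 3 arrays were Tcf3, Tcf12, Tcf4, Id2 and Id3, which is 5 of 10 against 41.3% of all genes. Id1, Id4 and Tal1 were above background on no array, as were 55.7% of all genes, and Lyl1 and Lmo2 were so on array 3 alone. The plot of levels by array shows the 5 genes apart from the others. Lyl1, Tal1 and Lmo2 lay near the limit, and on array 1 Id1 was nearer it than Tal1 and Lmo2.

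**Figure D1:**
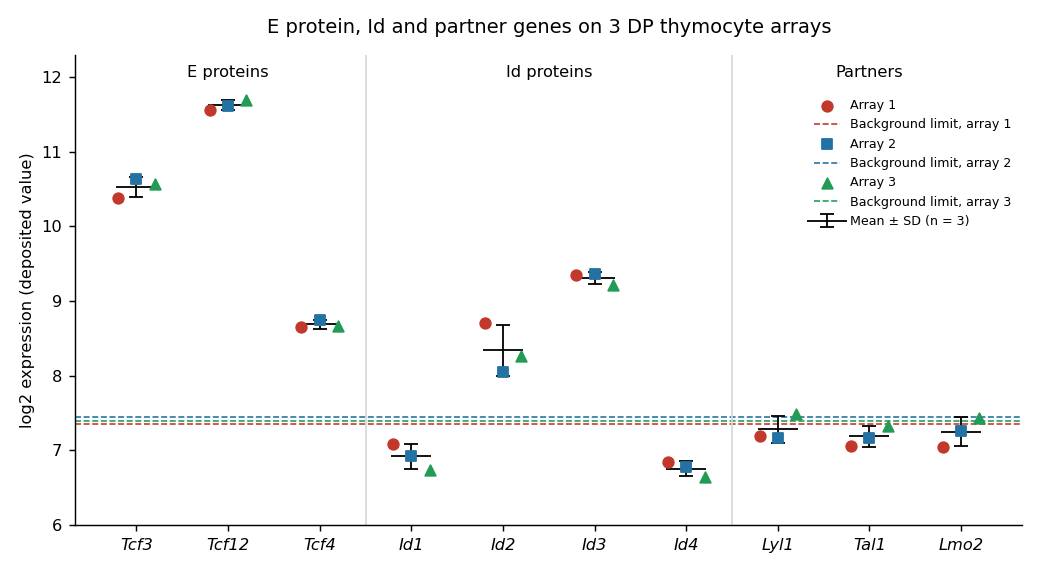
Log2 expression (vertical axis) of the 10 genes on arrays 1, 2 and 3 (points), with the mean and SD over the 3 arrays (bars) and each array's background limit (dashed lines). Tcf3, Tcf12, Tcf4, Id2 and Id3 sit above all the limits, and Id1, Id4 and Tal1 below them. Lyl1 and Lmo2 exceed the limit on array 3 alone.

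Tcf3, also known as E2A, encodes the splice variants E12 and E47, which 1 probe set does not separate. It had log2 values of 10.38, 10.63 and 10.57 on arrays 1, 2 and 3 (10.53 ± 0.13, SD, n = 3). Those values exceeded the limits of their arrays by 3.03, 3.19 and 3.18 log2 units. Tcf12 encodes HEB, the E protein that pairs with the Tcf3 products in thymocytes. It had log2 values of 11.56, 11.62 and 11.70 (11.63 ± 0.07, SD, n = 3), between 4.18 and 4.31 log2 units above the limits. Tcf4 encodes E2-2, the E protein best known for setting the plasmacytoid dendritic cell fate. It had log2 values of 8.65, 8.75 and 8.66 (8.69 ± 0.06, SD, n = 3), between 1.27 and 1.31 log2 units above the limits. All 3 genes were thus clear of background in every cohort, and each was lowest on array 1, Tcf4 by only 0.01 log2 units, as were 39.3% of all genes. Their highest and lowest arrays differed by 1.19-fold for Tcf3, 1.10-fold for Tcf12 and 1.07-fold for Tcf4.

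Since Tcf4 also marks plasmacytoid dendritic and B cells, the markers of those cells were read beside it. None of the 6 measured genes, Cd79a, Ms4a1, Pax5, Ebf1, Siglech and Irf8, lay above background on all arrays. Siglech, the defining receptor of plasmacytoid dendritic cells, had log2 values of 6.02, 6.12 and 5.95 on arrays 1, 2 and 3, all below the limits. Irf8 exceeded the limit on array 1 alone, at a log2 value of 7.78. The linear values of the 6 genes summed to 469, 384 and 394 on arrays 1, 2 and 3, and the part of such cells in the value of Tcf4 was not tested.

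Id3, the Id gene that T cell receptor signals induce through Egr factors, was above background and nearly level across cohorts. It had log2 values of 9.35, 9.36 and 9.22 on arrays 1, 2 and 3 (9.31 ± 0.08, SD, n = 3), at least 1.83 log2 units above the limits. Its arrays differed by at most 1.10-fold. Id2, which sets the innate lymphoid and natural killer fates and acts with Id3 in T cells, had log2 values of 8.71, 8.05 and 8.27 (8.34 ± 0.34, SD, n = 3). It cleared the limit by 1.36, 0.61 and 0.88 log2 units. Id2 was therefore above background in every cohort, with array 1 above both other arrays and 1.58-fold above array 2.

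Id1 and Id4 are the Id genes best known from endothelial, epithelial and neural tissue. Id1 had log2 values of 7.08, 6.93 and 6.74 (6.92 ± 0.17, SD, n = 3), between 0.27 and 0.65 log2 units below the limits. Id4 had log2 values of 6.84, 6.77 and 6.64 (6.75 ± 0.10, SD, n = 3), between 0.51 and 0.75 log2 units below. The 3-array median of all genes was 6.85, so both values lie in the middle of a distribution in which most genes are undetected. Of the 5 endothelial markers, Cdh5, Kdr, Tek and Tie1 lay below background on every array, and Pecam1, which T cells also express, had 9.49 ± 0.04 (log2, SD, n = 3).

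Lyl1 and Tal1 encode class II bHLH factors that bind DNA as dimers with E proteins, and Lmo2 encodes the LIM-only protein that bridges them to GATA factors through Ldb1. All 3 are expressed in haematopoietic progenitors and fall silent as T cells commit, and their forced expression drives T cell leukaemia. Lyl1 had log2 values of 7.19, 7.17 and 7.49 on arrays 1, 2 and 3 (7.28 ± 0.18, SD, n = 3), above the limit on array 3 alone by 0.10 log2 units. Tal1 had log2 values of 7.06, 7.17 and 7.33 (7.19 ± 0.14, SD, n = 3) and was below the limit throughout. Lmo2 had log2 values of 7.05, 7.26 and 7.43 (7.25 ± 0.19, SD, n = 3), above the limit on array 3 alone by 0.04 log2 units. These 3 genes were all highest on array 3, as were 29.0% of all genes, with steps of at most 0.38 log2 units between arrays. With a lower limit, 1 log2 unit over the median of the organ-specific genes, all 3 counted as above background on every array, so whether they are detected depends on the limit.

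Markers of the cells that carry this complex were below the limit on every array, as were 55.7% of all genes. All 8 progenitor markers, Kit, Flt3, Cd34, Hhex, Mef2c, Bcl11a, Spi1 and Gata2, lay below the limit on every array, with 3-array means from 5.60 to 6.78 (log2). All 5 measured erythroid and megakaryocyte markers, Gata1, Klf1, Epor, Itga2b and Pf4, did so too, with means from 5.20 to 7.01. Under the lower limit that counts the partners as detected, Itga2b, at 6.99, 7.01 and 7.02, was above background on every array too. The linear values of these 5 markers summed to 384, 388 and 389 on arrays 1, 2 and 3, and those of the progenitor markers to 593, 650 and 618. Of 4 thymic epithelial markers, Krt8 exceeded the limit on array 3 alone, at a log2 value of 7.55, and those linear values summed to 304, 393 and 433. Its part in the array 3 values of the partners was not tested.

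Id2 spread most over the cohorts among the 10 genes. None of the 10 passed the test for more variance over arrays than probe sets of its level show (limma, Benjamini-Hochberg adjusted p from 0.988 to 0.999), and 0.0207% of all probe sets passed it. Before adjustment, Id2 alone had p under 0.05 (limma, unadjusted p = 0.0245), as did 4.66% of all probe sets, so 1 such gene in 10 is no result about the group. Id2 was also the only one of the 5 detected genes whose arrays spanned over 0.5 log2 units, with a range of 0.66, against 4.47% of the 8239 genes above background. Its SD of 0.34 was exceeded by 2.11% of those genes, whose median SD was 0.093. Without array 1, Id2 had a mean log2 value of 8.16 and an unadjusted limma p of 0.105 (adjusted p = 0.948). With 3 arrays the test has little power for steps of this size. In simulated data with shifts planted on 1 array, it recovered 0% of shifts of 1 log2 unit and 46% of shifts of 2. Id2 had the widest range of the 10 genes, so none of them was likely to pass. The test therefore does not show that the cohorts were alike in any of the 10 genes.

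**Figure D2:**
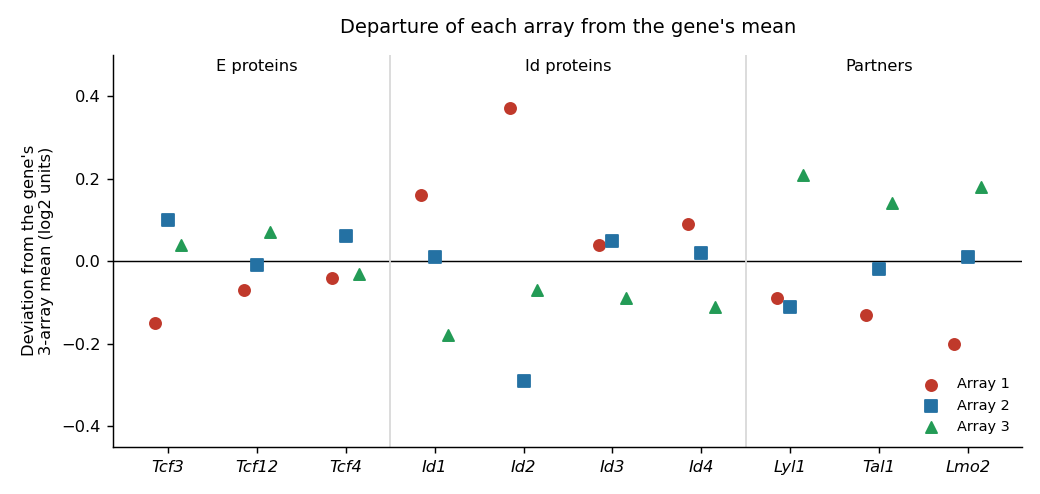
Deviation of each array from the gene's own 3-array mean (vertical axis, log2 units) for the 10 genes. Id2 runs from 0.37 on array 1 to -0.29 on array 2, and the 3 partners are all highest on array 3.

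The groups differed in their mean deviation on each array, in part through genes at or below the limit. The E protein genes deviated on average by -0.08, 0.05 and 0.03 log2 units on arrays 1, 2 and 3, with 3 of 3 lowest on array 1, Tcf4 by only 0.01. The Id genes deviated by 0.16, -0.05 and -0.11, with 3 of 4 highest on array 1, as were 34.5% of all genes. Of those 3, only Id2 was above background, and Id1 and Id4 were below it on every array. The partners, which lay near the limit, deviated by -0.14, -0.04 and 0.18. With so few genes these means are a description, and no test was made of them. Quantile normalization kept the sign of 29 of the 30 deviations and median centring of all 30. The exception was Tcf12 on array 2, at -0.007 as deposited and 0.050 under quantile normalization.

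**Figure D3:**
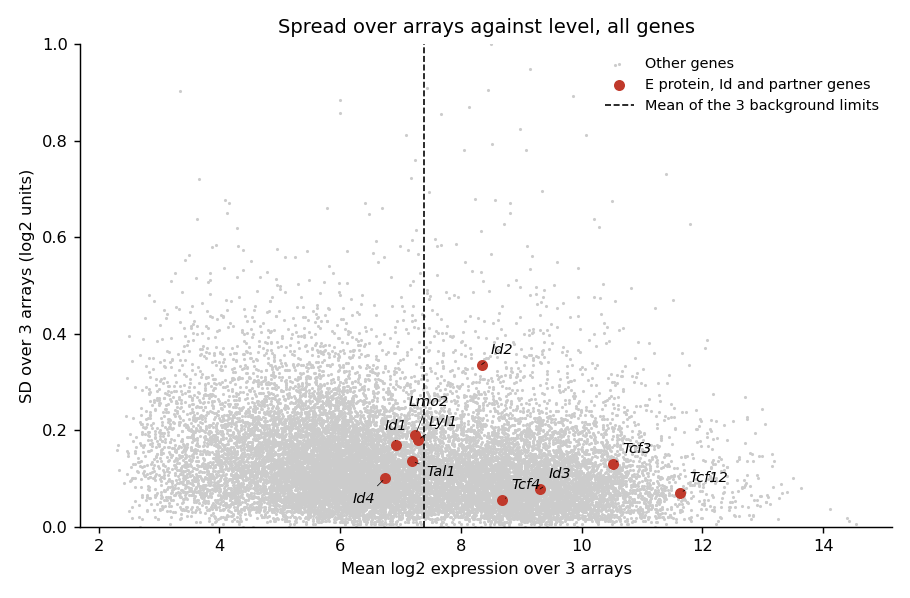
SD over the 3 arrays (vertical axis, log2 units) against the mean log2 value for all genes (grey) and the 10 genes (red); 14 genes with an SD above 1 lie off the axis, and the dashed line is the mean of the 3 limits. Id2 lies above the bulk of genes of its level, and Tcf12, Tcf4 and Id3 lie within it.

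Because probe effects cancel when a difference between genes is followed from array to array, the step between an E protein and an Id gene can be compared across cohorts, although its size on 1 array cannot be read as a ratio of transcripts. The value of Tcf3 minus that of Id2 was 1.67, 2.58 and 2.30 log2 units on arrays 1, 2 and 3. It was therefore lowest on array 1, with a span of 0.91 log2 units or 1.88-fold. For Tcf12 minus Id2 the values were 2.85, 3.57 and 3.43, and for Tcf4 minus Id2 they were -0.06, 0.70 and 0.39. Against Id3 the steps were flatter, at 1.03, 1.27 and 1.35 for Tcf3, 2.21, 2.26 and 2.48 for Tcf12 and -0.70, -0.61 and -0.56 for Tcf4. These 6 differences were all lowest on array 1. They restate the deviations above, where each E protein gene was lowest on array 1 and Id2 and Id3 exceeded their means. The differences also share genes and are not independent of each other. No test was made of them.

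Array 1 stood apart from the others, and Id2 was highest on it. Over 28944 probe sets its values had a Pearson's r of 0.993 with those of either other array, which had one of 0.996 with each other. Xist was above background on array 1 alone, and Eif2s3y, Kdm5d and Uty, which lie on the Y chromosome, were below it there alone. By these genes array 1 reads as female and arrays 2 and 3 as male, so sex and cohort cannot be told apart. All 4 passed the variance test (limma, adjusted p from 0.00869 to 0.0208), which 6 probe sets passed in all. All 8 immediate-early genes read, chosen after their values were seen, were highest on array 1, against 34.5% of all genes. Their mean deviation was 1.03 log2 units there and -0.56 and -0.47 on arrays 2 and 3. All 6 innate and NK markers, Il2rb, Klrb1c, Ncr1, Nkg7, Zbtb16 and Gzma, were highest on array 1, against 34.5% of all genes. Their linear values summed to 974, 667 and 780 on arrays 1, 2 and 3, the same order as that of Id2. How many of all genes have this order was not counted. The same order was found for the summed values of the 4 myeloid markers Csf1r, Lyz2, Itgam and Cd68 (478, 408 and 438), of the 5 endothelial markers (951, 890 and 925) and of the 6 B and plasmacytoid dendritic markers given above. None of the 4 myeloid or the 6 B and plasmacytoid dendritic markers lay above background on all arrays. Of the endothelial markers only Pecam1 did, which T cells also express. Its log2 values of 9.52, 9.44 and 9.51 make up most of the endothelial sums. Nkg7 and Gzma lay above background on all arrays, Nkg7 by only 0.03 log2 units on array 2. Il2rb, Zbtb16, Klrb1c and the defining NK receptor Ncr1 lay above it on none, and Ncr1 had log2 values of 5.11, 4.78 and 4.71. The DP markers ran the other way, with 6 of 7 lowest on array 1, against 39.3% of all genes, and a mean deviation of -0.18 log2 units there. The part of any of these in the value of Id2 was not tested.

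The promoters of 7 of the 10 genes were found in a table of RefSeq promoters of GRCm38.p6, and those of Id1, Tcf4 and Lmo2 were not. Those of Tcf3, whose product the project mapped in DP cells, of Id2, which varied most between cohorts, and of Id3, which varied least among the Id genes, are shown from 250 bases before to 50 after the transcript start. They lie at chr10:80433586-80433885 on the minus strand, chr12:25096043-25096342 on the minus strand and chr4:136143572-136143871 on the plus strand. Each is written 5′ to 3′ in the direction of its gene, and capitals mark every E-box, CANNTG, which reads the same way on both strands.

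Tcf3: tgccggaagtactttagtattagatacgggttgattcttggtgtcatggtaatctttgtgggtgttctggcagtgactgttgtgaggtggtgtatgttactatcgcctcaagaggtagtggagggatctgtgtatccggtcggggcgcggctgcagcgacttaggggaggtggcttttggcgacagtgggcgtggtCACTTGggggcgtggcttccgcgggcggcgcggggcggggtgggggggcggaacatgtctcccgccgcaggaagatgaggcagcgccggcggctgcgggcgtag

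Id2: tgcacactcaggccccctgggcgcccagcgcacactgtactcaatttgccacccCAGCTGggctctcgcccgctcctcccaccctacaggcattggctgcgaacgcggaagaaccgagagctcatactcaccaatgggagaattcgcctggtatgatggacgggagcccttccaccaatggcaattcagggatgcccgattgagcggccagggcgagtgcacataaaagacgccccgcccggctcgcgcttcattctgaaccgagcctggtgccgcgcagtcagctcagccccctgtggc

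Id3: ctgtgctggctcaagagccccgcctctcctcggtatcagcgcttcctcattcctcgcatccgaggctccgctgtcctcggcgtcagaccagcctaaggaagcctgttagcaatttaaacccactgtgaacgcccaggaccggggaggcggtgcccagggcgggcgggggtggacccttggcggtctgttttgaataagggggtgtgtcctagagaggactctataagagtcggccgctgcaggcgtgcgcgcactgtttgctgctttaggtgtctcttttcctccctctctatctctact

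The Tcf3 window held 1 E-box, CACTTG, starting 54 bases before the transcript start. The Id2 window held 1, CAGCTG, a form that E proteins bind, 196 bases before the start. The Id3 window, and that of Id4, held none. Of all 32851 promoter windows of this length, 72.3% held at least 1 CANNTG and 16.3% held CAGCTG, so 1 match in a window is common. Of the 3 Tcf12 windows 1 held CAGCTG, 240 bases before the start, and the Lyl1 window held CACCTG 235 bases before it. The windows of Id2, Id3 and Tcf3 had a GC content of 63.3%, 60.0% and 61.7%, against a median of 52.7% for all windows. A match is a description of the letters, and no binding was measured here.

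Most of the listed genes on which E proteins act in thymocytes were expressed. In a list of genes tied to E protein and Notch activity in thymocytes, 13 of 14 measured members lay above background on every array, against 41.3% of all genes, with a median of 10.26 (log2) against 6.85 for all genes. That list was chosen with earlier results of these data known. It includes the DP markers Rag1, Rag2, Cd3e and Cd4, and the cells were enriched for CD4. Its high share was thus largely set by the choice of genes and does not measure E protein activity. Rag1 (13.51 ± 0.10) and Rag2 (9.25 ± 0.48), the recombinase genes, Ptcra (8.34 ± 0.11), which encodes the alpha chain of the pre-T cell receptor, and Cd4 (11.74 ± 0.15) are the first of the list (log2, SD, n = 3). The exception was Hes1, a bHLH repressor that Notch induces, with log2 values of 8.11, 6.66 and 6.03, above background on array 1 alone. Its SD of 1.07 was the largest of the list, and the unadjusted limma p of 0.000293 did not pass adjustment over all probe sets. Rag2 ran the other way, with log2 values of 8.69, 9.51 and 9.54.

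Genes of later stages and of innate-like or follicular fates were more mixed. Of 9 measured, 6 lay above background on all arrays, against 41.3% of all genes, with a list median of 8.19 (log2) against 6.85. On array 1, 6 of the 9 were highest, against 34.5% of all genes. Foxo1, which drives the exit programme, had log2 values of 9.82, 9.02 and 8.91 on arrays 1, 2 and 3, and Klf2, which it induces, had 9.13, 8.43 and 8.41. Both were thus high on array 1, whereas Bcl6, the repressor that directs the follicular helper fate, had 9.89, 10.65 and 10.59 and was lowest there. Il7r exceeded the limit on array 1 alone. Zbtb16, the innate-like regulator PLZF, and Cxcr5 were above background on no array, at 6.22 ± 0.26 and 4.36 ± 0.14 (log2, SD, n = 3). After adjustment none of the 9 passed the limma variance test, and 4 had an unadjusted limma p under 0.05, against 4.66% of all probe sets.

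**Figure D4:**
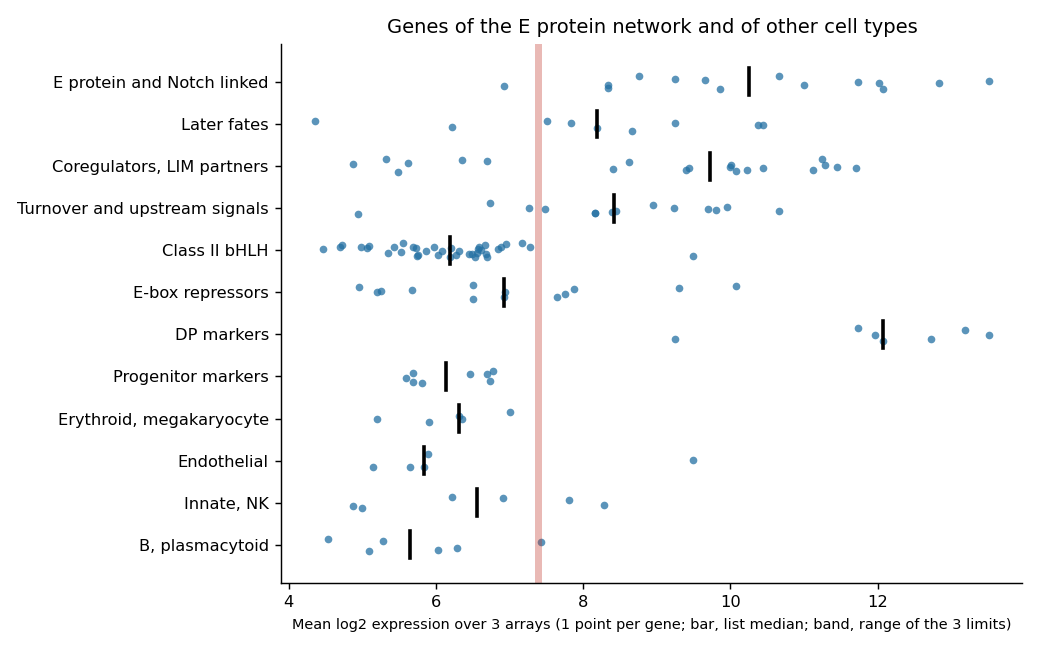
Mean log2 value over the 3 arrays (horizontal axis) of each measured gene in 12 lists (rows), with the list median (bar) and the range of the 3 background limits (band). Genes tied to E proteins and their coregulators lie mostly to the right of the limits, and all class II bHLH genes but Atoh7 lie to the left.

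Of the cofactors through which E proteins and the LMO complex act, 14 of 20 lay above background on all arrays, against 41.3% of all genes, with a list median of 9.72 (log2) against 6.85. The acetyltransferase genes Ep300 (10.08 ± 0.08), Crebbp (11.28 ± 0.06), Kat2a (8.62 ± 0.17) and Kat2b (8.41 ± 0.15) were among them, as were the corepressor genes Cbfa2t2 (9.40 ± 0.11) and Cbfa2t3 (9.44 ± 0.10) (log2, SD, n = 3). Of the parts that Lmo2 joins, Ldb1, the LIM-binding scaffold, had 11.24 ± 0.15, Ssbp2, which stabilises Ldb1, had 11.70 ± 0.06 and Gata3 had 10.44 ± 0.05. Gata1 (6.36 ± 0.07) and Gata2 (6.69 ± 0.22), the GATA partners of the progenitor and erythroid complex, lay below background on every array. Among the other LIM-only genes, Lmo4 had 10.01 ± 0.22 and lay above background, while Lmo1 (5.48 ± 0.15) and Lmo3 (4.88 ± 0.22) did not on any array. The scaffold and a GATA factor were thus expressed while Lmo2 and its bHLH partners lay near the limit.

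Of 38 measured class II bHLH genes, which could pair with E proteins, 36 lay above background on no array, against 55.7% of all genes. The list, which includes Lyl1, had a median of 6.19 (log2) against 6.85. Only Atoh7, a factor known from retinal progenitors, lay above background throughout, with log2 values of 9.39, 9.60 and 9.48 from its only probe set. Tal2, the nearest relative of Tal1 and Lyl1, had 5.06, 5.21 and 4.99. The E-box repressors were mixed, with 5 of 13 above background on all arrays, close to the 41.3% of all genes. These were Zeb1 (10.08 ± 0.04), which competes for E-boxes in T cells, Hes6 (9.30 ± 0.08), Hes5 (7.87 ± 0.03), Snai1 (7.76 ± 0.08) and Snai3 (7.65 ± 0.10) (log2, SD, n = 3). Zeb2 lay below background on every array, at 5.68 ± 0.25, and only Zeb1 and Hes6 exceeded the 99th percentile of the organ-specific genes.

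Of the genes that control the amount of E and Id protein, 10 of 14 measured lay above background on all arrays, against 41.3% of all genes, with a list median of 8.42 (log2) against 6.85. The ubiquitin ligase genes Skp2 and Stub1 had 8.45 ± 0.07 and 9.69 ± 0.15, Usp1, which deubiquitinates Id proteins, had 9.96 ± 0.04, and Asb2, a Notch-induced ligase subunit, lay below background at 6.73 ± 0.18 (log2, SD, n = 3). Among the Egr factors that induce Id3, Egr1 had log2 values of 8.55, 8.28 and 8.33 and Egr3 had 8.13, 8.21 and 8.14 on arrays 1, 2 and 3, both above background. Egr2, at 7.24, 7.61 and 7.60, exceeded the limit on arrays 2 and 3 alone. Across arrays the Egr genes ranged over at most 0.37 log2 units and Id3 over 0.14, against a median of 0.18 for genes above background. Egr1 was highest on array 1, whereas Egr2 and Egr3 were lowest there, Egr3 by only 0.01 log2 units. A link between the Egr genes and Id3 was not tested. Of the bone morphogenetic protein pathway that induces Id1, Smad1 (8.16 ± 0.06) and Smad5 (9.24 ± 0.14) lay above background, whereas the receptor gene Bmpr1a (4.94 ± 0.44) did not on any array (log2, SD, n = 3). The values of the receptor gene Bmpr2, at 7.27, 7.20 and 7.31, lay just under the limits, about as near them as Lyl1, Tal1 and Lmo2 did.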

How the data were processed

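Each cohort's RNA was labelled with biotin and hybridised to 1 Affymetrix array. Per the submitters' processing notes, the authors used the R package affy, with settings not given in the sources used here. Protocol text in the labels mentions formaldehyde fixation and does not say whether it applied to the RNA. The deposited values are log2 expression, a unit read from the values, and all arrays share nearly the same distribution, so a global difference in RNA content would not show. The number of arrays limits the precision.

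The 6612 lowest-numbered probe sets, none with a symbol, were left out, leaving 28944. Of all 35556 probe sets, 21789 have 1 symbol in the platform annotation, 1621 several and 12146 none. RefSeq (GRCm38.p6) gave the same symbol for all 10 genes. The background limit rests on 97 probe sets of 96 organ-specific genes, of which 4 exceeded it on all arrays. The brightest probe set represented a gene. The 10 genes and all lists were chosen with earlier results of these data known, and the 0.5 log2 threshold after the values were seen. The naming rule allowed the 10 genes, the first 4 measured of each list, a minority of 5 or fewer beside the limit, and the largest SD of a list; other genes were chosen after their values were seen.

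Variance over arrays was tested with limma 3.58.1 in R 4.3.3, as an F test against a robust mean-dependent prior with Benjamini-Hochberg adjustment over all 28944 probe sets. The procedure was tested on simulated data, where it made 9 false calls beside 200 planted shifts. The p-values measure the spread between these cohorts, which the labels call biological replicates and which differ in their sex-linked genes. Python 3.11.15 was used for the rest. Alternatives were other limits, other choices of probe set, quantile normalization, median centring, other priors and leaving out each array.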

Additional observations from a re-analysis of the deposited data

How the results depend on the processing

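With a limit 1 log2 unit over the organ-specific median, 8 of the 10 genes were above background on all arrays, the added 3 being Lyl1, Tal1 and Lmo2, and 3 class II bHLH genes were, against 1. With the 99th percentile as the limit, 2 E-box repressors were, against 5. The count of 5 genes of the group held under the other 7 alternatives, with the same 5 genes in each. The dimmest probe set could change nothing there, as each gene has 1, and leaving out an array could not lower the count. The counts of the pathway lists were unchanged under 42 of 48 alternatives and moved by over 1.5 times under the 2 just given. In the other 4, the genes of later fates counted 5 or 7, against 6, and those of turnover and upstream signals 11 or 12, against 10. No gene of the group passed the variance test under any of its 8 alternatives, but the test has little power for steps of this size. The unadjusted limma p of Id2 ran from 0.0218 with median centring to 0.105 without array 1, lying above 0.05 also without array 2 (0.0713) and with a prior without a trend (0.0509). All 120 recomputed levels and deviations of the 10 genes moved by less than their SD over arrays. For the levels, leaving out an array could not move a mean that far. Averaging probe sets could change nothing, as each gene has 1. Under median centring Id3 was highest on array 1 rather than array 2. Lyl1, Tal1 and Lmo2 are too near the limit for this number of arrays to say whether they are expressed.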
